A study of Mus musculus with 34 samples.

Results

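Lgr4 and 9 further genes of the R-spondin and Wnt pathway (Znrf3, Rnf43, Fzd1, Fzd4, Wnt4, Ctnnb1, Axin2, Lef1 and Rspo1) were followed by their symbols in the RNA sequencing of mouse cumulus cells (CCs), the granulosa cells that surround the oocyte in the follicle. The 10 genes were each found once among the 25965 entries of the count table, and all 34 libraries were used. They were chosen by the measured counts of leptin-treated and saline-treated mice, between which Lgr4 had one of the largest differences, so their values in that comparison are given as a description without a test.

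LGR4 is a receptor for R-spondins, secreted proteins such as RSPO1. ZNRF3 and RNF43 are membrane ubiquitin ligases that remove Frizzled receptors (FZD1 and FZD4 among them) from the cell surface. R-spondin bound to an LGR protein clears these ligases, so more Frizzled is left to receive Wnt ligands such as WNT4. Wnt binding stabilises β-catenin (Ctnnb1), which enters the nucleus and acts with TCF and LEF factors (Lef1), and Axin2, Znrf3 and Rnf43 are themselves known targets of that step. In the ovary, RSPO1 and WNT4 are known for their part in female gonad development, and Lgr4 for a part in follicle and luteal function.

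All animals were C57BL/6J females, 8 weeks old when the protocols began, and CCs were taken after superovulation, about 50 cells for each library. In the hyperleptinemic model, injections into the peritoneum were given for 16 days and held saline in 3 mice (16 C) or leptin in 5 (16 L), at 100 μg a day. In the diet-induced obesity (DIO) protocol, mice received chow (CD, 11% fat by the labels) or high-fat diet (HFD, 58%) for 4 weeks (n = 5 and n = 5) or 16 weeks (n = 6 and n = 7), and 3 further mice were labelled low weight gainers after 16 weeks of HFD. No group carried a genetic change by the labels.

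Total counts ranged from 1104611 to 13207018 per library. Values are given as RPM, the counts of a gene scaled to a library total of 1000000 counts. Granulosa markers were present in every group (the summed RPM of 8 genes was 403 to 1541 over all libraries), although Amh had no read in the low weight gainers. One leptin library stood apart. In 16 L replicate 18, Ovgp1, the oviduct glycoprotein, reached 29267 RPM, against 8.32 to 2196 in the other 16 L libraries and at most 65.0 in 16 C. Has2 and Ptx3, genes of the matrix of the expanding cumulus, had no read there, and Tnfaip6 had 1.64 RPM, against 218 to 521 in the other 16 L libraries. The sum of 6 luteal genes was 432 RPM there and 6981 to 10064 in the other 16 L libraries. Has2 also had no read in 16 L replicate 21, where Ptx3 was 2.72 RPM and Ovgp1 2196. Fold changes of the members with leptin are therefore given with and without replicate 18, the library farthest from the others. At 16 weeks, CD replicates 1 and 2 stood apart by the share of counts in the 50 most abundant genes (14.9% and 15.5%, against 23.4% to 31.7% in the other libraries of 16 weeks). Bulk libraries cannot tell fewer expressing cells from less RNA per cell.

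The sequence before the start of Lgr4 is shown because this gene set the choice of the others, and that of Axin2 because it is a classical target of β-catenin with TCF and LEF. Both are the 250 bases before the RefSeq start in GRCm38.p6, on the + strand, at chr2:109917397-109917646 for Lgr4 and chr11:108920099-108920348 for Axin2. Capitals mark CCAAT or its reverse complement ATTGG.
Lgr4: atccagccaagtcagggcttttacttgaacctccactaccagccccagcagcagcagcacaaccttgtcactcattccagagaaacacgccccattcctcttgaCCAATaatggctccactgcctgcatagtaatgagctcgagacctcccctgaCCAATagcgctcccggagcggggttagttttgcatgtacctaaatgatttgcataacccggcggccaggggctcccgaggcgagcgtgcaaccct
Axin2: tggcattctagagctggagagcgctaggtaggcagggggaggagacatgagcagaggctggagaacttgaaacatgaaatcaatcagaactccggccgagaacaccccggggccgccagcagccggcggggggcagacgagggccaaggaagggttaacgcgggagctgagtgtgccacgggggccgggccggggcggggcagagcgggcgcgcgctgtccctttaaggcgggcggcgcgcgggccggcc
The Lgr4 window had 2 CCAAT matches, at 146 to 142 and at 95 to 91 bases before the start, and the Axin2 window had none. CCAAT was searched after the Lgr4 sequence had been seen. At least 1 match was found in 33.8% of the 32851 windows of this length in the table, and at least 2 in 10.1%. The TCF and LEF motif, searched as CTTTGAT and as CTTTGAA on both strands, had a match in 0 of the 14 windows of the 9 members in the table, against 7.48% of all windows. TTCNNNGAA, the core of the STAT motif, and TGACGTCA, the cAMP response element, were also in 0 of the 14 windows (7.02% and 1.55% of all windows). These shares describe letters in short windows. Lgr4 itself spans chr2:109917647-110014257 on the + strand, with 20 merged exons of 5884 bases in GENCODE M21.

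Lgr4 was among the abundant transcripts of the control CCs and covered a range of over an order of magnitude among the groups. Its RPM was 6671, 7728 and 6746 in the 16 C libraries. In 16 L it was 744 in replicate 18 and 237, 107, 151 and 193 in replicates 19, 20, 21 and 23. The 5 leptin libraries all lay below the lowest saline library.

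After 4 weeks on a diet the RPM of Lgr4 was 156, 448, 516, 612 and 733 in CD and 413, 473, 550, 609 and 863 in HFD, with overlapping ranges. At 16 weeks on CD it was 346, 356, 373, 683, 2416 and 4166, so 4 libraries lay at the level of 4 weeks and 2 (replicates 13 and 9) among the values of HFD. At 16 weeks on HFD the lowest of 7 libraries had 990, the median was 3212 and the highest had 4823. The low weight gainers had 1087, 2463 and 2723.

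By group medians the order was 16 C, 16-week HFD, low weight gainers, 4-week HFD, 16-week CD, 4-week CD and 16 L. Among neighbours in this order the ranges were apart only between 16 C and 16-week HFD and between the low weight gainers and 4-week HFD. The hyperleptinemic and DIO experiments were separate, so the levels are placed side by side without a test between them. Lgr4 in saline-treated mice was above all 26 libraries of the DIO protocol, including those on CD.

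**Figure D1:**
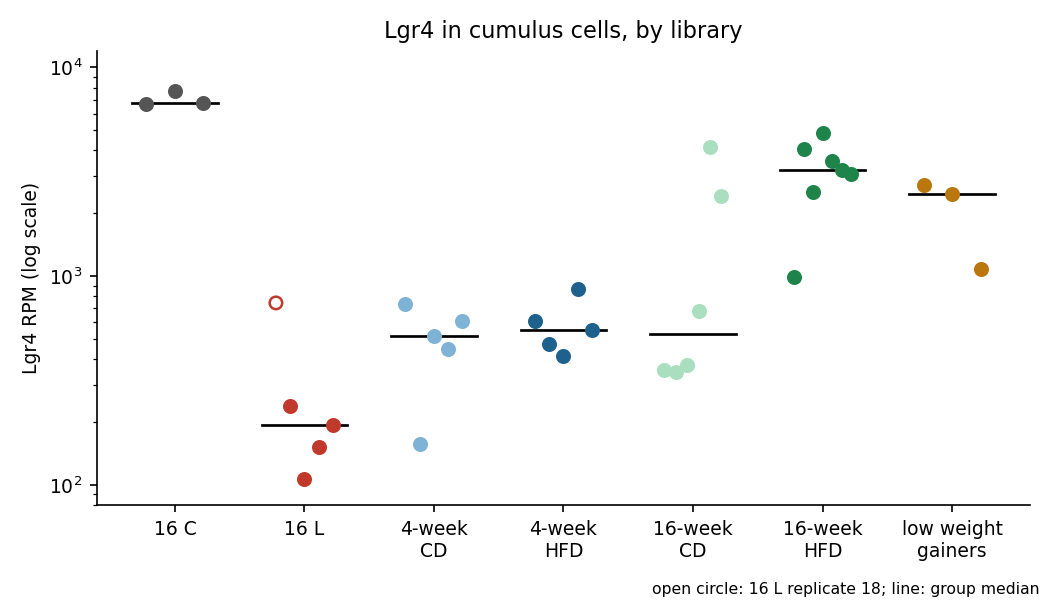
RPM of Lgr4 (log axis) in each of the 34 libraries by group, with a line at the group median and an open circle for 16 L replicate 18. The 16 C libraries lie between 6671 and 7728, the 16 L libraries between 107 and 744, and the 16-week CD libraries spread from 346 to 4166.

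Between 16 L and 16 C the mean of Lgr4 was 286 ± 260 RPM (SD, n = 5) against 7048 ± 589 (SD, n = 3), so the saline mean was 24.6 times the leptin mean. Without replicate 18 the 16 L mean was 172 ± 55.9 (SD, n = 4). The fitted log2 fold change was -5.19 (SE 0.872), and -6.36 (SE 0.413) without replicate 18. Ordered from the lowest log2 fold change, Lgr4 had rank 2 among the 11723 genes tested and rank 1 among the 1604 with a mean of at least 100 RPM in 16 C. Over all tested genes the median was 0.27. These are the values by which the genes were chosen.

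Znrf3 was also lower with leptin. Its RPM was 376, 488 and 354 in 16 C and 148, 85.6, 36.8, 44.4 and 55.8 in 16 L replicates 18, 19, 20, 21 and 23. The groups did not overlap, and the saline mean was 5.48 times the leptin mean. The fitted log2 fold change was -3.10 (SE 0.608), rank 110 in the same order, and -3.86 (SE 0.367) without replicate 18. Lgr4 and Znrf3 were thus 2 of the 7 members tested whose ranges did not overlap, in a comparison in which 31.3% of all genes tested did not overlap.

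The other members did not share this direction in the leptin comparison. Ctnnb1 was 151, 204 and 160 RPM in 16 C and 188, 416, 741, 660 and 808 in 16 L (log2 fold change 0.82, SE 0.435, and 0.91 without replicate 18). Its lowest leptin library, replicate 18, lay within the saline range and the other 4 lay above it. Wnt4 was 105, 68.8 and 99.2 RPM in 16 C, and in 16 L it split into 11.8 and 50.8 in replicates 18 and 19 and 342, 417 and 385 in the other 3. Its log2 fold change was 0.49 (SE 0.851), and 0.73 without replicate 18. That of Fzd1 was 0.80 (SE 0.975), and 1.00 without it. That of Axin2 was 0.18 (SE 0.668), and that of Rnf43, which failed the filter on low counts without replicate 18, was 0.55 (SE 0.885). The signs of Fzd1 and Axin2 turned when 1 library was left out (Fzd1 to -0.19 without 16 L replicate 19, Axin2 to -0.10 without 16 L replicate 18 and to -0.01 without 16 C replicate 3).

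Markers of other cells and states also differed between 16 C and 16 L. The sum of 7 cumulus expansion genes was 905 to 1437 RPM in 16 C and 8.05 to 886 in 16 L (272 to 886 without replicate 18), and most of the saline sum was Tnfaip6 (804 to 1317 RPM). Other genes of this list did not share its direction. Ptgs2 was 43.9 to 58.7 RPM in 16 C and 0.298, 168, 165, 41.6 and 140 in 16 L replicates 18, 19, 20, 21 and 23. Ptx3 was 16.8 to 39.8 in 16 C and 0, 11.6, 107, 2.72 and 178 in the same 16 L libraries. The sum of 9 oviduct epithelium genes was 130 to 162 and 158 to 31674 (158 to 2448 without replicate 18). That of 5 red blood cell genes was 5.30 to 35.7 and 16.4 to 14513 (still up to 7605, in replicate 21, without replicate 18). The sum of 8 macrophage and neutrophil genes was 71.9 to 451 and 78.5 to 1531. The 7 theca and stroma genes summed to 0.559 to 2.42 and 4.22 to 1512 (at most 56.1 without replicate 18), and the 6 luteal genes to 6541 to 7550 and 432 to 10064. The 9 oocyte genes summed to at most 15.8 RPM in any library of the comparison, and the endothelium genes to at most 31.2. Gm10800 was 173 to 1240 RPM in 16 C and 532 to 51504 in 16 L. The share of counts in the 50 most abundant genes was 30.7% to 34.6% in 16 C and 13.4% to 19.8% in 16 L. The share from mitochondrial genes was 0.335% to 0.628% in 16 C, 4.71% in 16 L replicate 19 and 0.435% to 0.654% in the other 16 L libraries. The genes were chosen by the values of this comparison. In Lgr4 and Znrf3 all 5 libraries of 16 L lay below all 16 C libraries, which leaving out replicate 18 could not change. The part of the other measures in these differences was not tested.

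Between genes, levels were compared per kilobase of merged exon. In 16 C the median of Lgr4 was 1147 RPM per kb, against 47.7 for Znrf3, 30.8 for Ctnnb1 and 23.7 for Wnt4. In 4-week CD Ctnnb1 (161 RPM per kb) and Wnt4 (94.3) were above Lgr4 (87.7), and in 16 L they were above it (127 and 81.6, against 32.8). In 16-week HFD Lgr4 (546) again stood over Ctnnb1 (42.6), Wnt4 (36.8) and Znrf3 (36.7).

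Among the ligands, Rspo1 was close to absent. It had 0 reads in 16 C, in both 4-week groups, in 16-week CD and in the low weight gainers, and 2 reads in 16-week HFD. A count of 0 allows up to 3 reads in a library at 95% confidence, which was 0.227 to 1.68 RPM in 16 C and covers counting error only, as reads carried no molecular identifiers. Of the 160 reads in 16 L, 158 were in replicate 18 (23.6 RPM), the library with high Ovgp1, and 2 in replicate 21. Wnt4 was detected in all 34 libraries, with group medians from 99.2 RPM in 16 C to 395 in 4-week CD.

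Of the Frizzled receptors, Fzd1 had group medians from 11.2 RPM in 16 C to 59.5 in 4-week CD. At 16 weeks its RPM was 141 and 154 in CD replicates 1 and 2 and 23.7, 31.9, 32.8 and 37.4 in the other 4. It was 19.1, 19.5 and 21.2 in the low weight gainers and 15.4 to 50.3 (median 24.2) on HFD. Fzd4 never exceeded 4.54 RPM, and its 3′ end in the table lies 3024 bases short of that in GENCODE M21, so reads of the distal transcript may be missing from its counts. Rnf43, the second ligase, was also scarce (at most 12.3 RPM), with its highest values in 16-week CD replicates 1 and 2 (10.1 and 12.3).

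Downstream, Ctnnb1 had group medians from 160 RPM in 16 C to 833 in 4-week CD, Axin2 from 1.45 in 16-week HFD to 11.7 in 4-week CD, and Lef1 at most 3.93 RPM in any library. The exons of Ctnnb1, Axin2 and Lef1 overlap on the opposite strand with those of Ulk4, Gm11670 and Gm43352, respectively. The library method does not keep strand, so reads in these stretches cannot be told apart.

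**Figure D2:**
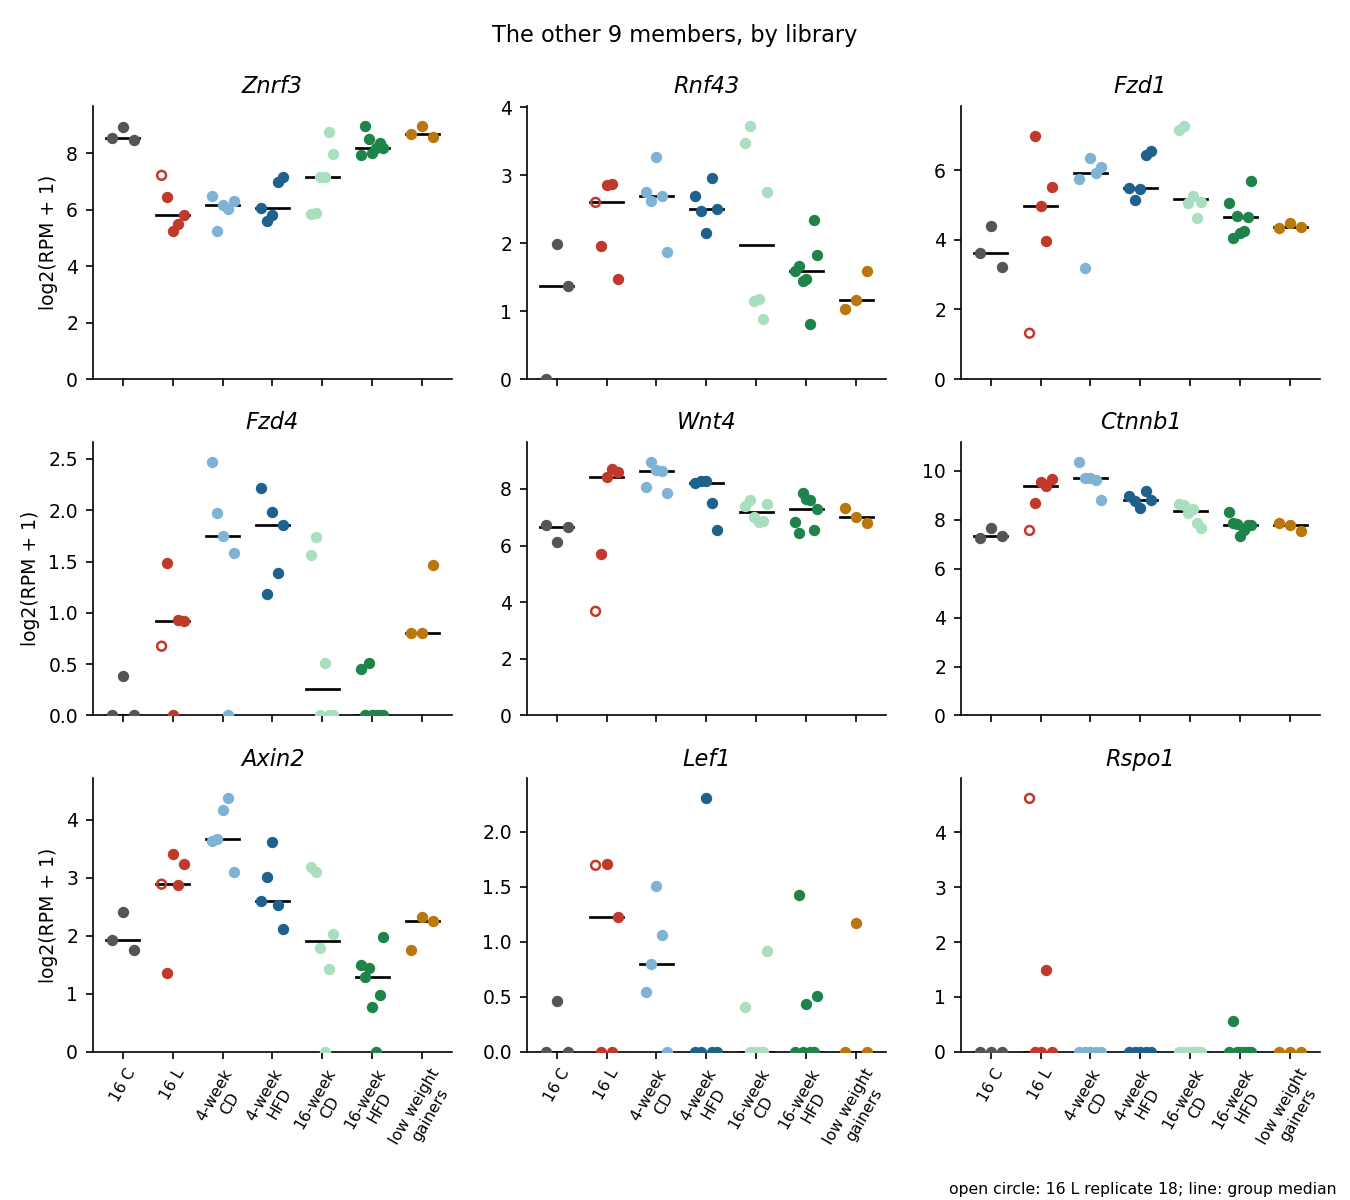
log2(RPM + 1) of the other 9 members in each library by group, with lines at group medians and an open circle for 16 L replicate 18. Znrf3 is high where Lgr4 is high (16 C and 16 weeks of HFD), Ctnnb1 and Axin2 are highest in 4-week CD (medians of 833 and 11.7 RPM), and Lef1, Fzd4 and Rspo1 are at or near 0 in most libraries.

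The genes were chosen by the leptin comparison, with earlier results of these data known. The diet comparisons may thus not be fully independent of that choice. They were tested with edgeR, with Benjamini-Hochberg adjustment over all genes. After 4 weeks of HFD, 8 members were tested and 0 passed an adjusted p of 0.05, against 4.26% of all genes (2 at an unadjusted p under 0.05, 0 with DESeq2 and 2 with limma-voom). Over all genes, 2845 of 11727 had an unadjusted p under 0.05. With DESeq2 1285 of 11717 passed, and with limma-voom 4052 of 11727. The ranges of 0 of the 8 members were apart, against 6.86% of all genes tested. The 2 members with the smallest p were both lower with HFD. Axin2 was 7.58, 11.3, 11.7, 17.0 and 19.7 RPM in CD and 3.32, 4.75, 5.06, 7.10 and 11.3 in HFD. Of the 5 HFD libraries, 4 lay below the CD range (log2 fold change -1.01, SE 0.360, adjusted p = 0.109). Ctnnb1 was 452, 794, 833, 847 and 1314 RPM in CD and 362, 430, 443, 496 and 576 in HFD, with 3 of the 5 HFD libraries below the CD range (log2 fold change -0.79, SE 0.301, adjusted p = 0.126). Both passed without 4-week CD replicate 11, the lowest CD library in each (adjusted p = 0.0400 for Axin2 and 0.0338 for Ctnnb1), and with limma-voom and sample quality weights (0.0169 and 0.00723). Over all genes, 1700 of 11794 passed without that library and 4052 of 11727 with limma-voom. In the edgeR fit of all libraries of the comparison, Lgr4 (0.34, SE 0.354, adjusted p = 0.564) and Znrf3 (0.48, SE 0.339, adjusted p = 0.394) did not pass. In one 4-week HFD library the oocyte genes summed to 404 RPM, against at most 10.4 in 4-week CD. The groups were also apart in the share of counts in the 50 most abundant genes (13.7% to 18.5% in CD and 18.7% to 20.2% in HFD), in Lars2 (1684 to 4729 and 324 to 781 RPM) and in Fshr (0.734 to 15.8 and 17.1 to 30.2 RPM). Foxl2, from the same list of granulosa markers as Fshr, had the other direction (10.0 to 24.2 and 6.17 to 11.7 RPM). The sum of that list overlapped between the groups (medians of 733 and 777 RPM). The part of these measures in the values of Axin2 and Ctnnb1 was not tested.

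After 16 weeks of HFD, 5 members passed the filter on low counts and 0 passed the test, where 0.0276% of all genes did (1 at an unadjusted p under 0.05, 0 with DESeq2 and 0 with limma-voom). Of all 10861 genes, 2748 had an unadjusted p under 0.05, and 1056 passed with DESeq2 and 5 with limma-voom. Ranges were apart for 0 of the 5 members and for 0.875% of all genes tested. Lgr4 was higher with HFD by a log2 fold change of 1.31 (SE 0.675, adjusted p = 0.228) and Znrf3 by 1.00 (SE 0.487, adjusted p = 0.206). The RPM of Znrf3 was 56.1, 57.7, 143, 144, 250 and 428 in CD and 245 to 503 (median 289) in HFD. One CD library, replicate 9, held the highest value of both genes in its group. Without it Lgr4 (2.24, adjusted p = 0.0200), Znrf3 (1.64, adjusted p = 0.0173) and Fzd1 (-1.08, adjusted p = 0.0455) passed. In that fit 2222 of 10830 genes passed over all. With CD replicate 9 kept, Fzd1 was at -0.94 (SE 0.366, adjusted p = 0.128). With CD replicates 1 and 2 left out together, 0 members passed, where 1 of 10998 genes did. Fzd1 was then at -0.08 (adjusted p = 0.934), Lgr4 at 0.81 (0.708) and Znrf3 at 0.54 (0.654). Wnt4 (0.38, SE 0.253) and Ctnnb1 (-0.12, SE 0.198) did not pass (adjusted p = 0.329 and 0.718). The other 5 members had too few reads and were compared by exact two-sided permutation tests of mean log2(RPM + 1), with p from 0.155 for Axin2 to 1 for Rspo1. Left without CD replicate 8, in which it had no read, Axin2 reached an exact p of 0.0227.

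The low weight gainers were set against each 16-week group, and both comparisons use the same 3 libraries. The share of counts from mitochondrial genes was 0.337% to 0.614% in the low weight gainers, below all libraries of 16-week HFD (0.786% to 1.53%) and 16-week CD (0.902% to 2.31%), and its part in the results was not tested. Against 16-week HFD, 0 of 6 members passed although 20.7% of all genes did (0 at an unadjusted p under 0.05, 0 with DESeq2 and 0 with limma-voom). Of all 11258 genes, 4083 had an unadjusted p under 0.05, and 2848 passed with DESeq2 and 3301 with limma-voom. Ranges were apart for 0 of the 6 members and for 18.5% of all genes tested. Lgr4 was at -0.81 (SE 0.449, adjusted p = 0.203), and passed (-0.98, adjusted p = 0.0460) when 16-week HFD replicate 6, the lowest HFD library, was left out. In that fit 2732 of 11149 genes passed over all. With all libraries, Axin2 was at 0.98 (SE 0.540, adjusted p = 0.200) and Znrf3 at 0.21 (SE 0.269, adjusted p = 0.596). Fzd4, which failed the filter, had 15 reads in the low weight gainers and 3 in 16-week HFD. All 3 low weight gainers lay above all 7 HFD libraries (exact permutation p = 0.0167, the smallest the test can give for these group sizes, unadjusted, 1 of 14 such tests in the diet comparisons). At 0.741 to 1.77 RPM this rests on 3 to 7 reads a library.

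Against 16-week CD, 0 of 7 members passed, where 0.00861% of all genes did (1 at an unadjusted p under 0.05, 0 with DESeq2 and 0 with limma-voom). Over all genes, 1299 of 11620 had an unadjusted p under 0.05. With DESeq2 245 of 11618 passed, and with limma-voom 214 of 11620. Fzd1 was the member whose ranges were apart (1 of 7 tested, against 6.93% of all genes). All 3 low weight gainers lay below all 6 CD libraries (log2 fold change -1.44, SE 0.505, adjusted p = 0.352). Without CD replicates 1 and 2 it was at -0.63 (adjusted p = 0.251). Lgr4 (0.54, SE 0.927, adjusted p = 0.871) and Znrf3 (1.24, SE 0.679, adjusted p = 0.521) had large errors, with the spread of the CD libraries described above.

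The difference of the HFD effect between 16 and 4 weeks was tested as an interaction. Of 8 members tested, 0 passed, against 3.66% of all genes (2 at an unadjusted p under 0.05, 0 with DESeq2 and 0 with limma-voom). Over all genes, 2863 of 12235 had an unadjusted p under 0.05. With DESeq2 1165 of 12234 passed, and with limma-voom 2289 of 12235. The interaction was 0.96 (SE 0.868, adjusted p = 0.521) for Lgr4, 0.55 (SE 0.674, adjusted p = 0.652) for Znrf3, 0.90 (SE 0.426, adjusted p = 0.197) for Wnt4 and 0.73 (SE 0.356, adjusted p = 0.211) for Ctnnb1.

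**Figure D3:**
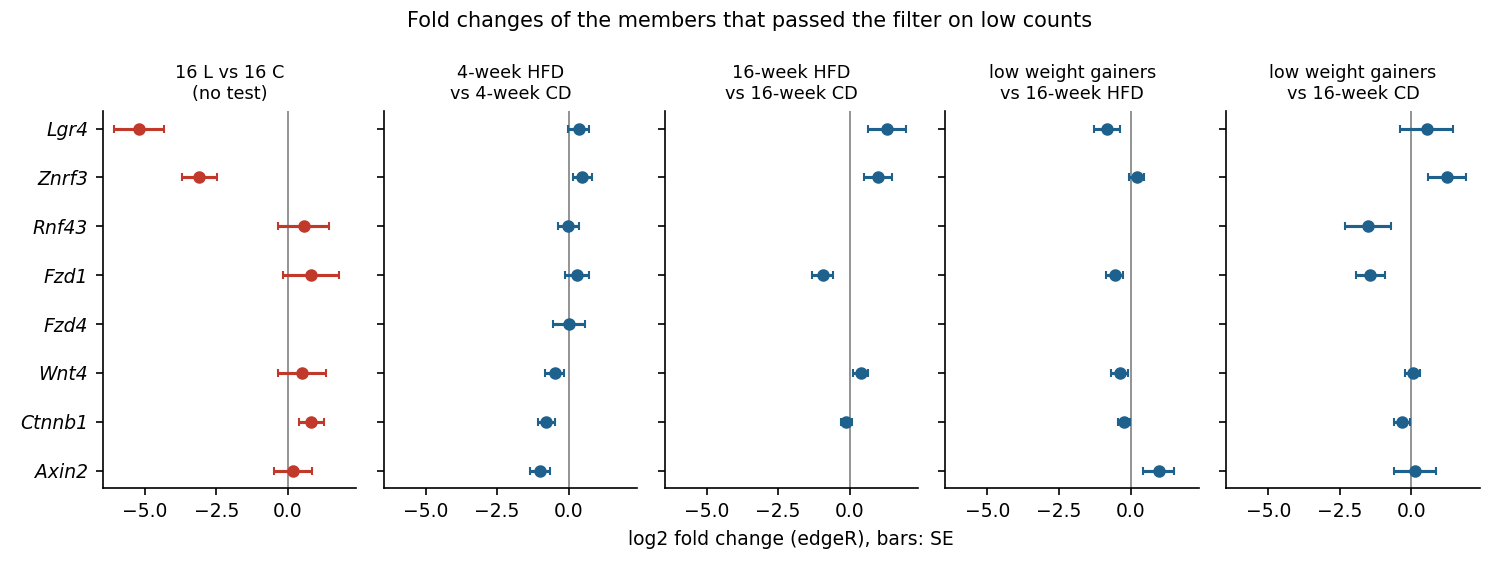
Log2 fold changes of the members that passed the filter on low counts (points) with their SE (bars) in 5 comparisons, fitted with edgeR. Lgr4 and Znrf3 stand at -5.19 and -3.10 in 16 L (no test), and at 1.31 and 1.00 after 16 weeks of HFD, where the bars are wide and neither passed.

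The other genes of the pathway were counted in a list of 93 genes. With leptin, 57 of them were tested, 2 rose and 2 fell, which is 4 of 57 where 8.56% of all genes were called (median log2 fold change of the 57 genes 0.80, against 0.27 for all genes). Sfrp2, a secreted inhibitor of Wnt ligands, fell by 4.16 on the log2 scale (SE 0.596, adjusted p = 0.0111), with 333 to 746 RPM in 16 C and 10.7 to 96.9 in 16 L. Myc, a cell growth regulator and known target, fell by 2.64 (adjusted p = 0.0270), with 182 to 206 RPM in 16 C and 23.2 to 126 in 16 L. Bcl9, a nuclear partner of β-catenin, rose by 1.80 (adjusted p = 0.0389), from 3.35 to 9.77 RPM in 16 C to 39.7 to 50.7 in 16 L. Lrp5, a co-receptor of Frizzled, rose by 4.53 (adjusted p = 0.0401), with 9 reads in all in 16 C and 323 in 16 L. Without 16 L replicate 18 the log2 fold changes were -4.02 for Sfrp2, -2.75 for Myc, 1.57 for Bcl9 and 4.59 for Lrp5, and each passed. Over the 8 fits with 1 library left out, Sfrp2 passed in 7, and Myc, Bcl9 and Lrp5 in 2 each. The ranges of each of these genes were apart between the groups, as were those of 31.3% of all genes tested. The genes were named because they passed on these same libraries. Dkk3, a secreted protein of the Dickkopf family, and Ccnd1, cyclin D1, had larger values (5.36 and 5.03) and did not pass (adjusted p = 0.0516 and 0.0736). The count was between 0 (without 16 C replicate 3) and 24 (without 16 L replicate 18), and was 1 without 16 C replicate 1 or 2 or 16 L replicate 20, 21 or 23, and 11 without 16 L replicate 19. Over all genes, 31 of 11923 passed without 16 C replicate 3. Without 16 L replicate 18 and 19 in turn, 4635 of 11077 and 1603 of 11103 did.

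After 4 weeks of HFD, 6 of 53 list genes passed, 2 higher and 4 lower, where 4.26% of all genes were called. Wls, which carries Wnt ligands to the surface, rose by 1.19 (adjusted p = 0.0361), with 79.7 to 192 RPM in CD and 237 to 417 in HFD, and Fzd6, a Frizzled receptor, by 1.06 (adjusted p = 0.0355). Fzd2, another Frizzled, fell by 1.87 (adjusted p = 0.0384), Wnt10b, a ligand, by 1.54 (0.0472), Tcf7l1, a TCF factor, by 1.46 (0.0402) and Tle3, a co-repressor of TCF factors, by 1.13 (0.0215). The count was 13 without 4-week CD replicate 11, where 1700 of 11794 genes passed over all. It was 0 to 3 without any one of the other libraries, where 8 to 369 genes passed over all.

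After 16 weeks of HFD, 0 of 48 list genes passed with edgeR, where 0.0276% of all genes did (18 at an unadjusted p under 0.05, 10 with DESeq2 and 0 with limma-voom). Of all 10861 genes, 2748 had an unadjusted p under 0.05, and 1056 passed with DESeq2 and 5 with limma-voom. The list genes with the smallest p were Csnk1d, a casein kinase (-1.08, adjusted p = 0.0654), Kremen1, a Dickkopf receptor (-2.01, adjusted p = 0.0662), and Ptk7, a Wnt co-receptor (-2.42, adjusted p = 0.0674). Without CD replicate 9, 15 list genes passed, where 2222 of 10830 genes did over all. Without CD replicate 13, 5 list genes passed, where 473 of 11017 genes did.

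In the low weight gainers 11 of 51 list genes differed from 16-week HFD, 6 higher and 5 lower, a share near the 20.7% called among all genes, so the count says nothing particular of the list. The 8 with the largest changes were Aes (1.59, a TLE family protein), Dvl3 (1.57, a Dishevelled adaptor), Porcn (1.26, which acylates Wnt ligands) and Csnk1d (1.22), which rose, and Apc (-1.45, of the complex that degrades β-catenin), Fzd5 (-1.10, a Frizzled), Tnks (-1.06, a tankyrase that acts on Axin) and Lgr5, a relative of Lgr4 (9.87 to 20.0 RPM, against 16.1 to 42.9 in 16-week HFD), which fell. Their adjusted p ranged from 0.00120 to 0.0345. The count was 5 without low weight gainer replicate 21 or 23, where 1145 of 11521 and 596 of 11492 genes passed over all. It was 7 without low weight gainer replicate 22 or 16-week HFD replicate 14, where 1456 of 11555 and 1793 of 11222 did. Against 16-week CD, 0 of 54 passed with edgeR, where 0.00861% of all genes did (5 at an unadjusted p under 0.05, 2 with DESeq2 and 1 with limma-voom), with Apc, Tnks and Fzd5 at the smallest p (adjusted p from 0.287 to 0.373). Over all genes, 1299 of 11620 had an unadjusted p under 0.05. With DESeq2 245 of 11618 passed, and with limma-voom 214 of 11620. In the interaction 4 of 57 list genes passed, where 3.66% of all genes did. Ryk, a Wnt receptor, had a positive term (1.70, adjusted p = 0.0256), and Kremen1 (-2.95, 0.0291), Csnk1d (-1.32, 0.0446) and Ptk7 (-3.07, 0.0470) negative ones. Leaving out 4-week CD replicate 11 gave 8 such list genes, where 1204 of 12377 genes passed over all. Leaving out 16-week CD replicate 9 gave 12 list genes, where 1685 of 12208 genes passed over all. There were 0 to 2 list genes without 16-week CD replicate 1 or 2, 16-week HFD replicate 10, 12, 14, 15 or 16, 4-week CD replicate 1, 2, 7 or 8, or 4-week HFD replicate 3, 4 or 5.

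Of the relatives of Lgr4, Lgr5 was found at group medians of 11.7 to 33.6 RPM and Lgr6 at no more than 1.98. Per kilobase, Lgr5 was at 1.34 RPM per kb in 16 C, against 1147 for Lgr4. The hormone receptors of the family, Fshr and Lhcgr, had group medians of 3.91 to 25.8 and 5.09 to 39.8 RPM. Tshr was found mainly in 16 L, with 440 reads, of which 29 were outside replicate 18, and Rxfp1 and Rxfp2 had at most 3 reads in any group.

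Over the 26 DIO libraries Znrf3 followed Lgr4 closely, with Spearman's rho of 0.895 on log2 CPM, rank 82 of 11272 genes compared. The 5 genes most like Lgr4 were Slc24a5, Ikbip, 1700029F09Rik, Gnl3l and Wapal (rho from 0.950 to 0.961). Over all 34 libraries they were Slc24a5, Ikbip, 2700007P21Rik, Mrfap1 and Fubp3 (0.945 to 0.955), and Znrf3 had 0.928 (rank 30 of 11224). Axin2 and Ctnnb1 went the other way over the DIO libraries (-0.725 and -0.569), and Rnf43 and Fzd1 were at -0.470 and -0.468. These correlations share libraries and include differences between groups, and are given as a description. With group means removed, Znrf3 had 0.752 and Ctnnb1 0.0229. Within the 16 libraries of 16 weeks rho was 0.700 for Znrf3, -0.499 for Axin2 and -0.271 for Ctnnb1.

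Lgr4 moved with how concentrated a library was. The rho of its RPM with the share of counts in the 50 most abundant genes was 0.844 over the 26 DIO libraries, 0.774 over the 16 libraries of 16 weeks and 0.0909 over the 10 of 4 weeks. Its rho with the number of genes detected was -0.527 over the 26, -0.571 at 16 weeks and 0.661 at 4 weeks, and with total counts -0.0188 over the 26, -0.168 at 16 weeks and 0.758 at 4 weeks. With the share of counts from mitochondrial genes it was -0.525, -0.444 and 0.261. The sum of the 7 cumulus expansion genes had a rho of 0.292 with Lgr4 over the 26, 0.471 at 16 weeks and 0.430 at 4 weeks. Over the 26 its members differed in sign, with Tnfaip6 at 0.664 and Btc at 0.309, and Has2, Ptx3, Areg, Ereg and Ptgs2 at -0.0393, -0.166, -0.602, -0.692 and -0.730. At 4 weeks Ptgs2 was at 0.370. The summed oocyte genes, which were at most 10.4 RPM in all but 1 library, had a rho of -0.714 with Lgr4 over the 26 libraries and -0.939 over the 10 of 4 weeks, and the summed cumulus and granulosa genes -0.247 over the 26 and -0.762 at 16 weeks. The part of these measures in the levels of Lgr4 was not tested.

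**Figure D4:**
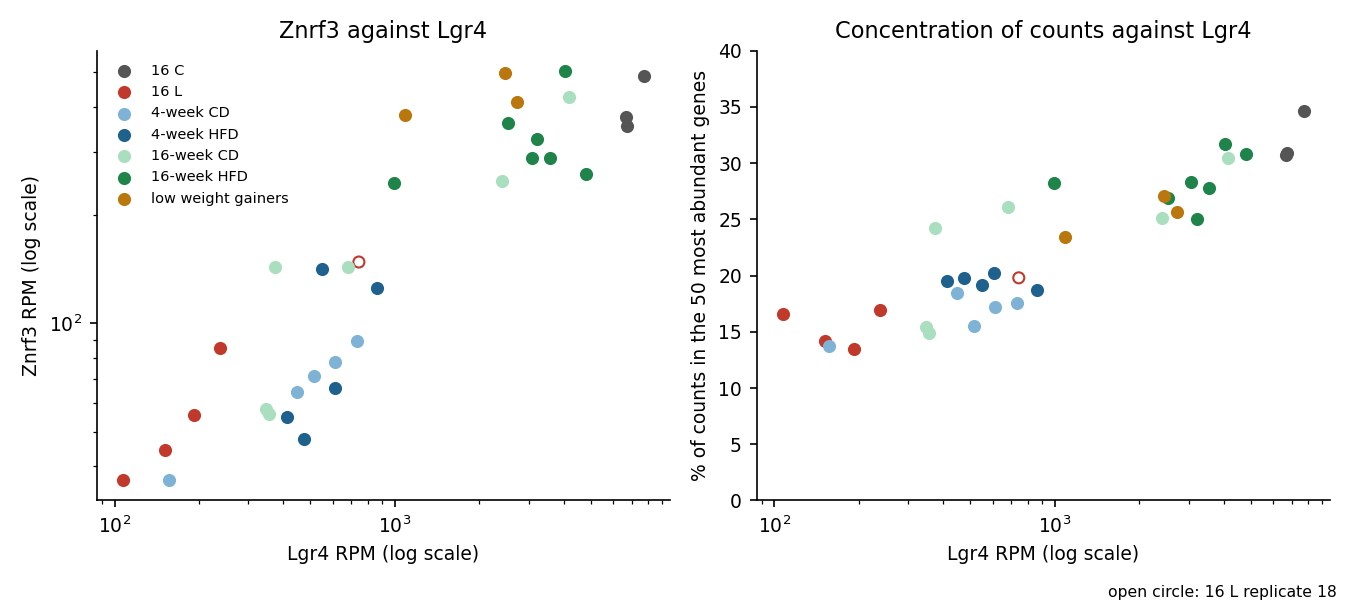
RPM of Znrf3 (left, log axis) and the share of counts in the 50 most abundant genes in percent (right) against RPM of Lgr4 (log axis) in the 34 libraries, colored by group, with an open circle for 16 L replicate 18. Both rise with Lgr4 (rho 0.895 for Znrf3 on log2 CPM and 0.844 for the share over the DIO libraries), and the 16 C libraries lie at the upper right of each panel.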

How the data were processed

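The 34 libraries, 1 per mouse, were grouped by their sample labels. The authors made them with Smart-seq2 oligo-dT and Nextera XT. They deposited raw counts of reads per gene, without normalization. The submitters' processing notes name Trim Galore 0.4.2 and HISAT2 2.0.5 with GRCm38. The counting program and annotation are not given in the sources used here. Total counts ranged from 1104611 to 13207018, and 0 of 72 replicate pairs were identical.

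The tests used edgeR 4.0.16 under R 4.3.3 (filterByExpr, TMM, robust quasi-likelihood F-test, two-sided) on the groups of each comparison, and called at a Benjamini-Hochberg adjusted p under 0.05 over all genes. Members that failed the filter were compared by exact two-sided permutation of mean log2(RPM + 1). Likeness to Lgr4 was ranked by Spearman's rho of log2 CPM (prior count 1) among expressed genes. The alternatives were DESeq2 1.42.0, limma-voom (limma 3.58.1), RLE, no filter, a joint fit, a pseudocount of 0.1, a replicate block and leaving out each library. Scripts were tested on simulated data. In each comparison the text names the members, up to 8 list genes with the largest changes past the threshold (otherwise the 3 with the smallest p), the LGR family and the 5 genes most like Lgr4. Dkk3, Ccnd1, Ovgp1, Lars2, Gm10800, Foxl2, the cumulus expansion genes and, in the 4-week comparison, Fshr were named after their values were seen. The members and lists were chosen with earlier results of these data known. Nothing shows whether the spread between mice includes technical differences of the libraries. Sequences came from RefSeq (GRCm38.p6), matched by symbol for 9 of 10 members. Znrf3 had none.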

Additional observations from a re-analysis of the deposited data

Results flagged for a closer look

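Of the 47 sets of member RPM in groups of 5 to 7 libraries, 6 had a library farther from the others than Dixon's 95% limit allows. Chance gives about 1 in 20 for normally distributed values. That rate does not apply to the flagged sets of Lef1 and Rspo1, which were mostly counts of 0. In 16 L, replicate 18 was high for Lgr4 (744 RPM, against 107 to 237 in the other 4) and for Rspo1 (23.6 RPM, against at most 1.81). This is the library with 29267 RPM of Ovgp1, and the cause was not tested. Lef1 stood apart in 4-week HFD replicate 5 (3.93 RPM, 16 reads), in 16-week CD replicate 13 (0.886 RPM, 2 reads) and in 16-week HFD replicate 10 (1.69 RPM, 7 reads), and Rspo1 in 16-week HFD replicate 10 (0.482 RPM, 2 reads). These rest on few reads.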

How the results depend on the processing

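No call of a member passed in the diet comparisons under edgeR with RLE, without the filter or in the joint fit of all libraries, or with DESeq2. Members passing numbered 2 of 8 at 4 weeks with limma-voom, where 4052 of 11727 genes passed. With 1 library left out they ranged from 0 to 2 at 4 weeks, 0 to 3 at 16 weeks and 0 to 1 for low weight gainers against 16-week HFD, and were 0 in the other fits. In the fits with these highest counts, 1700 of 11794, 2222 of 10830 and 2732 of 11149 genes passed, respectively. The list count with leptin (4 of 57) was 18 of 54 with DESeq2, 36 of 57 with limma-voom, 2 of 82 without the filter and 27 of 63 in the joint fit. Over all genes these fits called 2628 of 11074, 7474 of 11723, 504 of 18962 and 4384 of 13236. With 1 library left out the list count was 0 to 24. The highest was 24 of 53, without 16 L replicate 18, where 4635 of 11077 genes were called. At 4 weeks the list count (6 of 53) was 11 of 53, 21 of 53 and 0 of 63 with DESeq2, limma-voom and the joint fit. Over all genes these fits called 1285 of 11717, 4052 of 11727 and 69 of 13236. With 1 library left out the list count was 0 to 13. The highest was 13 of 54, without 4-week CD replicate 11, where 1700 of 11794 genes were called. At 16 weeks the list count (0 of 48) was 10 of 48 with DESeq2 and 10 of 63 in the joint fit. Over all genes these fits called 1056 of 10861 and 1258 of 13236. With 1 library left out the list count was 0 to 15. The highest was 15 of 48, without CD replicate 9, where 2222 of 10830 genes were called. For low weight gainers against 16-week HFD the list count (11 of 51) was 18 of 51 with limma-voom and 3 of 63 in the joint fit. Over all genes these fits called 3301 of 11258 and 487 of 13236. With 1 library left out the list count was 5 to 13. The highest was 13 of 50, without 16-week HFD replicate 10, where 2401 of 11165 genes were called. Against 16-week CD the list count (0) was 2 with DESeq2 and 1 with limma-voom, where 245 of 11618 and 214 of 11620 genes were called. In the interaction the list count (4) was 7, 12 and 2 with DESeq2, limma-voom and the joint fit. Over all genes these fits called 1165 of 12234, 2289 of 12235 and 157 of 13236. It was 0 with CD replicates 1 and 2 of 16 weeks left out together (chosen after seeing the data), where 89 of 12280 genes were called. With 1 library left out it was 0 to 12, the highest without 16-week CD replicate 9, where 1685 of 12208 genes were called.

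With the replicate number as a block, the interaction had 0 list genes past the threshold and Axin2 turned from 0.17 to -0.36. The numbers did not pair the libraries (correlations of same-numbered libraries from -0.285 to 0.154 over 7 pairs).

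Signs of most log2 fold changes that did not pass turned in few or no fits. At 4 weeks, however, Fzd4 kept its sign in only 4 of the 10 fits with 1 library left out, and Rnf43 in 6. With limma-voom Znrf3 (-0.12) and Fzd1 (-0.44) turned at 4 weeks, and Rnf43 (0.13) and Fzd1 (0.074) in the interaction. Without the filter Rnf43 turned at 4 weeks (0.0044). Without both CD libraries Rnf43 (0.30) and Fzd4 (0.68) turned in the interaction. With 1 library left out, the ranges that crossed 0 were -0.19 to 1.37 (Fzd1) and -0.10 to 0.60 (Axin2) with leptin, -0.22 to 0.17 (Rnf43) and -0.23 to 0.55 (Fzd4) at 4 weeks, -0.10 to 0.27 (Wnt4) and -0.10 to 0.37 (Axin2) for low weight gainers against 16-week CD, and -0.14 to 0.47 (Axin2) in the interaction.

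On TMM library sizes the mean of Lgr4 in 16 C was 10288 RPM in place of 7048, and 8 of 70 group means moved by more than 1 SD. With a pseudocount of 0.1 the differences of Fzd4 and Lef1 with leptin were 2.07 and 1.84 on the log2 scale, in place of 0.68 and 0.77. Pearson's correlation gave 2 and 3 of the 5 genes most like Lgr4 in the DIO and in all libraries. Left without any 1 low weight gainer, Fzd4 had an exact permutation p of 0.0556. This is the smallest the test can give with so few libraries, so these fits could not have passed and do not show dependence on 1 library. Fzd4, Lef1, Rspo1 and, at 16 weeks, Axin2 and Rnf43 had too few reads to show changes of ordinary size.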
